A study of Oryza sativa with 9 samples.

Results

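The genes described here are 10 rice genes of the phenylpropanoid pathway, taken by their identifiers from a table of 37863 genes measured in young panicles: 7 genes of the *PAL* family, 1 *C4H* gene, *4CL3* and *CAD2*. They were chosen by identifier and enzyme name, by a rule that holds no measured value but was written with earlier results of these data known. Phenylalanine ammonia-lyase (PAL) removes ammonia from phenylalanine and so opens the pathway, cinnamate 4-hydroxylase (C4H) turns the resulting cinnamic acid into p-coumaric acid, and 4-coumarate:CoA ligase (4CL) joins that acid to coenzyme A. The product is shared between lignin, flavonoids and the hydroxycinnamic acids bound to grass cell walls. Cinnamyl alcohol dehydrogenase (CAD) makes the alcohols from which lignin is polymerised, and lignin hardens the walls of xylem, fibres and the hulls that enclose the grain.

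The libraries came from 3 genotypes of the *japonica* variety Zhonghua11 with 3 libraries each, labelled as biological replicates: untransformed ZH11, the overexpression line ZH11-OE1 and the knockout line ZH11-KO1, which the study writes ZH11-OE-1 and ZH11-Cas9-1. In ZH11-OE1 the coding sequence of *GSE9*, a gene of grain shape, was driven by a ubiquitin promoter, and ZH11-KO1 carried CRISPR/Cas9 edits of *GSE9* from a construct with Cas9 under a ubiquitin promoter. Both lines went through *Agrobacterium* transformation and each genotype was sequenced in 1 line, so that effects of the line, of the transformation and of *GSE9* cannot be told apart. Panicles were taken before heading by the labels and before anthesis by the methods, and no row of the table carried the name of *GSE9*, so that its own level was not analysed here.

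Transcript levels are in FPKM, the fragments of a gene scaled to its length and to the size of the library. The FPKM values stepped by whole reads, and the reads recovered from these steps gave totals of 14227327 to 16405688 reads per library. Differences between genotypes were tested with limma on log2(FPKM + 1) over the 21780 genes whose mean reached 1 FPKM, and a gene was called at a Benjamini-Hochberg adjusted p under 0.05. Log2 fold changes below are on that scale, and values with ± are means and SD of FPKM over n = 3 libraries. Each of the 8 floral organ markers listed was above 0 in every library. The libraries are whole panicles, so that fewer cells of a type and less RNA per cell cannot be told apart.

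The *PAL* family ran from one of the most abundant transcripts of the panicle to a gene with no reads. Os02g0626100 was the 3rd to the 20th gene of a library by FPKM and took 0.424 to 0.768 percent of its reads. Os02g0626400 followed at 371 to 759.9 FPKM over the 9 libraries and Os04g0518100 at 97.6 to 165 FPKM. The other members lay far below, with Os02g0627100 at 7.45 to 24.2 FPKM, Os05g0427400 at 3.4 to 6.73 FPKM and Os04g0518400 at 3.06 to 6.08 FPKM. The last pair overlapped in ZH11 and ZH11-KO1 and were apart in ZH11-OE1. Os02g0626600 was listed at 0 in all 9 libraries, which allows a level of up to 3 reads in a library, for counting error only. It was below the filter, so that 9 of the 10 genes were tested.

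Among the later enzymes *CAD2* (Os02g0187800) had the highest level per length, at 128 to 267 FPKM, followed by *4CL3* (Os02g0177600) at 68.8 to 140.0 FPKM and the *C4H* gene (Os05g0320700) at 38.3 to 91.7 FPKM. This order, *CAD2* over *4CL3* over *C4H*, held in every genotype without overlap of the libraries. Over all 9 libraries the highest exceeded the lowest by 1.69-fold in Os04g0518100 and by 3.25-fold in Os02g0627100, with the other tested genes between. Os05g0427400 and Os04g0518400 had 104 to 245 reads a library, against 60906 to 120965 reads in Os02g0626100. Within a genotype the CV (SD over mean) was 13.3 to 32.4 percent in Os05g0427400 and 20.0 to 21.7 percent in Os04g0518400. In Os02g0626100 it was 12.8 to 17.6 percent. Os02g0626100, Os02g0626400, Os02g0626600 and Os02g0627100 have neighbouring identifiers on chromosome 2, as do Os04g0518100 and Os04g0518400 on chromosome 4. How alike these genes are in sequence was not analysed here. The split of reads between family members is uncertain, since the counting of shared reads and the use of strand are not given in the sources used here.

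**Figure D1:**
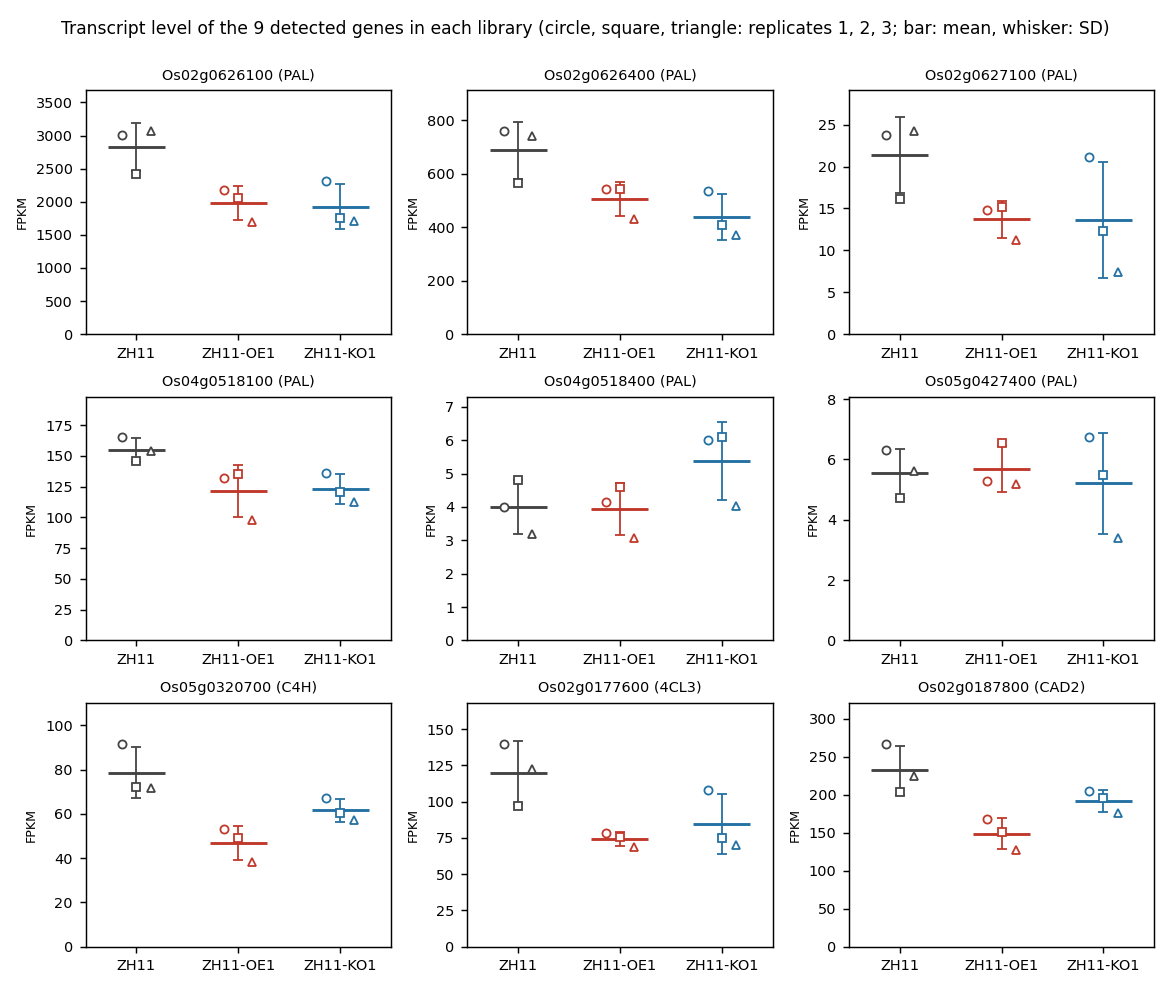
FPKM of the 9 detected genes (vertical axes, each from 0) in ZH11, ZH11-OE1 and ZH11-KO1, with a circle, square and triangle for replicates 1, 2 and 3, a bar for the mean and a whisker for the SD. In ZH11-OE1 all libraries lie below all ZH11 libraries in 7 genes, and in ZH11-KO1 in 4, while Os04g0518400 and Os05g0427400 overlap between all genotypes.

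The first comparison asked how the pathway stood in panicles of the overexpression line. The *C4H* gene, *4CL3* and *CAD2* were lower in ZH11-OE1 than in ZH11, by 40.2, 38.1 and 35.9 percent of the mean FPKM. None of the 6 tested *PAL* genes passed the test. Together limma called 3 of the 9 tested genes, all lower, where 13.8 percent of all tested genes were called, 10 percent lower and 3.76 percent higher. The median log2 fold change of the 9 genes was -0.52, against -0.04 over all tested genes. At an unadjusted p under 0.05, 6 of the 9 passed, all lower, and the limma voom fit on recovered reads called 4. Voom called 3252 of all 21780 genes, 2226 of them lower. The share of all genes at an unadjusted p under 0.05 was not computed.

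The *C4H* gene had 91.7, 72.3 and 71.7 FPKM in ZH11 replicates 1, 2 and 3, and 53.3, 49.2 and 38.3 FPKM in those of ZH11-OE1. Every ZH11-OE1 library was below every ZH11 library, and the means were 47.0 ± 7.7 against 78.6 ± 11.4 FPKM. The log2 fold change was -0.73 (SE 0.14, 95% interval -1.04 to -0.43, limma adjusted p = 0.00906). This call held under all 18 alternatives, with adjusted p from 0.00233 to 0.0332.

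For *4CL3* the libraries of ZH11 had 140.0, 97.1 and 123 FPKM and those of ZH11-OE1 had 78.2, 75.6 and 68.8 FPKM. The ZH11-OE1 libraries were close together, at 74.2 ± 4.8 FPKM, and all lay under the lowest of the more scattered ZH11 libraries. The log2 fold change was -0.67 (SE 0.17, limma adjusted p = 0.0271). The call was lost with no filter (adjusted p = 0.0536), without ZH11 replicate 1 (0.101) or 3 (0.0524), and without ZH11-OE1 replicate 1 (0.0576), 2 (0.0786) or 3 (0.0797), while the log2 fold change stayed between -0.81 and -0.55.

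*CAD2*, whose loss of function in rice gives golden hulls and less lignin, had 267, 204 and 225 FPKM in ZH11 and 168, 151 and 128 FPKM in ZH11-OE1. The ranges were apart, with the highest ZH11-OE1 library under the lowest ZH11 library. The means were 149 ± 20.2 and 232 ± 32.3 FPKM. The log2 fold change was -0.64 (SE 0.13, 95% interval -0.92 to -0.36, limma adjusted p = 0.0117). Under the 18 alternatives the adjusted p ran from 0.00529 to 0.0428, so that the call held in each.

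At the entry step, Os02g0626100 had 3012, 2413 and 3069 FPKM in ZH11 and 2183, 2061 and 1694 FPKM in ZH11-OE1. No ZH11-OE1 library reached a ZH11 library, but with a log2 fold change of -0.52 (SE 0.17, limma adjusted p = 0.0673) the gene missed the threshold. It passed it in the voom fit (adjusted p = 0.0290) and without ZH11 replicate 2. Os02g0626400 gave 759.9, 566 and 739.8 FPKM in ZH11 against 542, 544 and 432 FPKM in ZH11-OE1, again without overlap, and a log2 fold change of -0.44 (limma adjusted p = 0.101). Os04g0518100 (log2 fold change -0.36, limma adjusted p = 0.0866) and Os02g0627100 (-0.59, 0.197) also had separate libraries and missed the threshold.

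The *PAL* genes were not all placed in the same way. Os04g0518400, at 4.0 ± 0.81 FPKM in ZH11 and 3.93 ± 0.79 FPKM in ZH11-OE1, and Os05g0427400, at 5.55 ± 0.81 and 5.68 ± 0.76 FPKM, overlapped between the genotypes. Their log2 fold changes were -0.02 and 0.03, the first turning to 0.02 after median-of-ratios rescaling and 0.07 after quantile normalization. In all, the libraries did not overlap in 7 of the 9 tested genes, each lower in ZH11-OE1, where 21.2 percent of all tested genes were apart in this direction and 12.6 percent in the other. With 3 libraries against 3, the exact two-sided permutation test cannot go below p = 0.1, which was the value in these 7 genes.

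**Figure D2:**
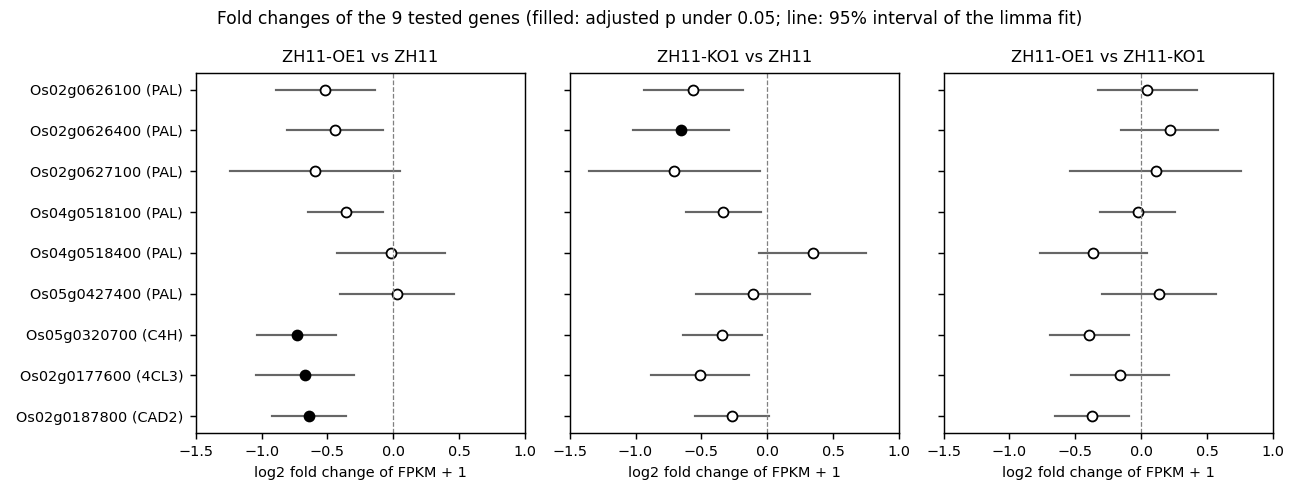
Log2 fold change of FPKM + 1 of the 9 tested genes in the 3 comparisons (horizontal axes, dashed line at 0), with the 95% interval of the limma fit as a line and a filled point for an adjusted p under 0.05. Filled points are the *C4H* gene, *4CL3* and *CAD2* in ZH11-OE1 against ZH11 and Os02g0626400 in ZH11-KO1 against ZH11, all left of 0.

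The second comparison set the knockout line against the same ZH11 libraries, so that the comparisons with ZH11 share their controls. A single gene, the *PAL* gene Os02g0626400, was called lower in ZH11-KO1, by 36.3 percent of the mean FPKM. Over all tested genes 8.60 percent were called, 3.59 percent lower and 5.0 percent higher in ZH11-KO1. The *C4H* gene, *4CL3* and *CAD2*, at 21.6, 29.5 and 17.2 percent under the ZH11 mean, did not pass. The median log2 fold change of the 9 genes was -0.34, against -0.02 over all tested genes. In this comparison 6 of the 9 passed at an unadjusted p under 0.05, all lower, and voom called 2. Voom called 2077 of all 21780 genes, 906 of them lower, and the unadjusted share of all genes was not computed.

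Os02g0626400 had 534, 409.6 and 371 FPKM in ZH11-KO1 replicates 1, 2 and 3, all under the lowest ZH11 library of 566 FPKM. Its mean was 438 ± 85.1 FPKM against 689 ± 107 FPKM in ZH11. The log2 fold change was -0.66 (SE 0.16, limma adjusted p = 0.0369). The call was lost with no filter (adjusted p = 0.0764), in a fit of only the 2 groups compared (0.0709), and without ZH11 replicate 1 (0.0917) or 3 (0.120), ZH11-OE1 replicate 1 (0.0549) or 2 (0.0519), or ZH11-KO1 replicate 2 (0.136) or 3 (0.107).

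The most abundant *PAL* gene, Os02g0626100, had 2315, 1748 and 1710 FPKM in ZH11-KO1 and a log2 fold change of -0.56 (SE 0.17, limma adjusted p = 0.0669). Its libraries lay below those of ZH11, as did those of Os04g0518100 and the *C4H* gene, with log2 fold changes of -0.33 (adjusted p = 0.133) and -0.34 (0.146). These and Os02g0626400 were the 4 of 9 genes without overlap, each lower in ZH11-KO1, which held for 16.0 percent of all tested genes, with 14.2 percent apart in the other direction. The *C4H* gene had 67.3, 60.2 and 57.1 FPKM, above every ZH11-OE1 library and below every ZH11 library.

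*4CL3* gave 108, 74.9 and 70.4 FPKM in ZH11-KO1, where replicate 1 lay within the range of ZH11, and a log2 fold change of -0.51 (limma adjusted p = 0.0875). *CAD2* gave 205, 196 and 176 FPKM, with replicate 1 again within the ZH11 range, and a log2 fold change of -0.27 (limma adjusted p = 0.221). Os02g0627100 was the most scattered gene, with 21.1, 12.3 and 7.45 FPKM in the 3 libraries, a CV of 50.9 percent. Os04g0518400 was the one gene with a higher mean in ZH11-KO1, at 5.37 ± 1.16 FPKM against 4.0 ± 0.81 FPKM in ZH11, with overlapping libraries and a log2 fold change of 0.34 (limma adjusted p = 0.270).

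How many genes passed in ZH11-KO1 turned on whether the libraries were taken as paired. The deviations of ZH11 and ZH11-KO1 libraries with the same replicate number ran together across genes (r of 0.234 to 0.316). The number was therefore also used as a block. Differently numbered libraries of ZH11 and ZH11-OE1 reached an r of 0.274, so that the pairing is uncertain. With the block in a fit of all 9 libraries 2 genes were lower, Os02g0626400 (adjusted p = 0.0310) and *4CL3* (0.0421). Over all tested genes that fit called 1807, of which 762 were lower. With the block in a fit of these 2 groups alone, an alternative chosen after seeing the data, 5 were lower: Os02g0626100 (adjusted p = 0.0443), Os02g0626400 (0.0223), Os04g0518100 (0.0349), the *C4H* gene (0.0309) and *4CL3* (0.0266). Over all tested genes this 2-group fit called 2705, of which 987 were lower. Without the block the 2-group fit called 960, of which 377 were lower. Without ZH11-KO1 replicate 1 the unblocked limma fit called 4 genes, without ZH11 replicate 2 it called 3 and without ZH11-OE1 replicate 3 it called 1. It called 0 without ZH11 replicate 1 or 3, ZH11-OE1 replicate 1 or 2, or ZH11-KO1 replicate 2 or 3. Over all tested genes the fit called 1214 without ZH11-KO1 replicate 1, 1993 without ZH11 replicate 2 and 1610 without ZH11-OE1 replicate 3. Of these 650, 693 and 642 were lower. The fits that called 0 of the 9 genes called 417 to 1520 of all tested genes.

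No gene of the 9 passed in both comparisons with ZH11, where 1.61 percent of all tested genes were called lower in both. Between the lines themselves, limma called 0 of the 9 genes, against 23.9 percent of all tested genes, 15.8 percent lower and 8.09 percent higher in ZH11-OE1 than in ZH11-KO1. At an unadjusted p under 0.05 there were 2, the *C4H* gene and *CAD2*, and the limma voom fit on recovered reads called the same pair. Over all genes voom called 5527 of 21780, 3473 of them lower, and the share at an unadjusted p was not computed. The *C4H* gene had a log2 fold change of -0.39 in ZH11-OE1 against ZH11-KO1 (SE 0.14, 95% interval -0.69 to -0.09, adjusted p = 0.0585). *CAD2* had -0.37 (SE 0.13, 95% interval -0.65 to -0.09, adjusted p = 0.0563). These were the 2 genes whose libraries did not overlap between the lines, both lower in ZH11-OE1, where 25.1 percent of all tested genes were apart in that direction and 18.8 percent in the other.

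With the replicate block in the fit of all libraries 3 genes passed between the lines, the *C4H* gene (adjusted p = 0.0159), *CAD2* (0.0256) and Os04g0518400 (0.0463). Over all tested genes that fit called 5379, of which 3465 were lower in ZH11-OE1. Same-numbered libraries of these lines were not taken as paired (r of -0.0649 to 0.0147), so that the block rests on no pairing seen between the lines. The differences of the abundant *PAL* genes were near 0 or overlapped: Os02g0626100 had a log2 fold change of 0.05 (95% interval -0.33 to 0.42) and Os02g0626400 of 0.22 (-0.15 to 0.58). For *4CL3* the value was -0.16 (-0.53 to 0.21). Differences within these intervals could not be resolved with 3 libraries a group.

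The summed level of the *PAL* family showed the entry step as a whole. The sum was 3706 ± 481 FPKM in ZH11, 2630 ± 340 FPKM in ZH11-OE1 and 2510 ± 443 FPKM in ZH11-KO1, or 29.0 and 32.3 percent below ZH11. The lines overlapped each other, at 2243 to 2881 and 2209 to 3019 FPKM, and neither reached the 3151 FPKM of the lowest ZH11 library. A sum over chosen genes was given no test. Os02g0626100 alone made up 74.5 to 77.4 percent of it in every library.

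The abundant genes kept close shares of this sum, and the scarce ones varied more. Os02g0626400 made up 18.0 to 19.1 percent in ZH11, 18.8 to 19.7 percent in ZH11-OE1 and 16.8 to 17.8 percent in ZH11-KO1, where it was below every other library. The ratio of Os02g0626100 to Os02g0626400 was accordingly 4.27 to 4.60 in ZH11-KO1, against 3.96 to 4.26 in ZH11 and 3.79 to 4.03 in ZH11-OE1. Os04g0518100 contributed 3.86 to 4.63 percent in ZH11, 4.35 to 4.90 percent in ZH11-OE1 and 4.51 to 5.25 percent in ZH11-KO1, which overlap. Os04g0518400 contributed 0.0798 to 0.152 percent in ZH11, 0.136 to 0.166 percent in ZH11-OE1 and 0.182 to 0.264 percent in ZH11-KO1. Os05g0427400 contributed 0.14 to 0.159 percent in ZH11, 0.184 to 0.237 percent in ZH11-OE1 and 0.154 to 0.238 percent in ZH11-KO1. The shares were apart from ZH11 in ZH11-KO1 for Os04g0518400 and in ZH11-OE1 for Os05g0427400. They overlapped ZH11 in the other line, and the levels overlapped in both lines.

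Set against the *PAL* sum of the same library, the later enzymes separated the lines. *CAD2* stood at 5.63 to 6.73 FPKM per 100 FPKM of *PAL* in ZH11, 5.47 to 5.82 in ZH11-OE1 and 6.78 to 8.50 in ZH11-KO1. The ZH11-KO1 libraries were thus above all others by this ratio, although their *CAD2* levels were not. The *C4H* gene was at 1.79 to 2.31 in ZH11, 1.71 to 1.85 in ZH11-OE1 and 2.23 to 2.62 in ZH11-KO1, and *4CL3* at 3.07 to 3.53, 2.72 to 3.07 and 3.19 to 3.59. In both of these the ranges of ZH11-OE1 and ZH11-KO1 were apart and that of ZH11-KO1 overlapped ZH11. The ratios were described only, with no test.

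**Figure D3:**
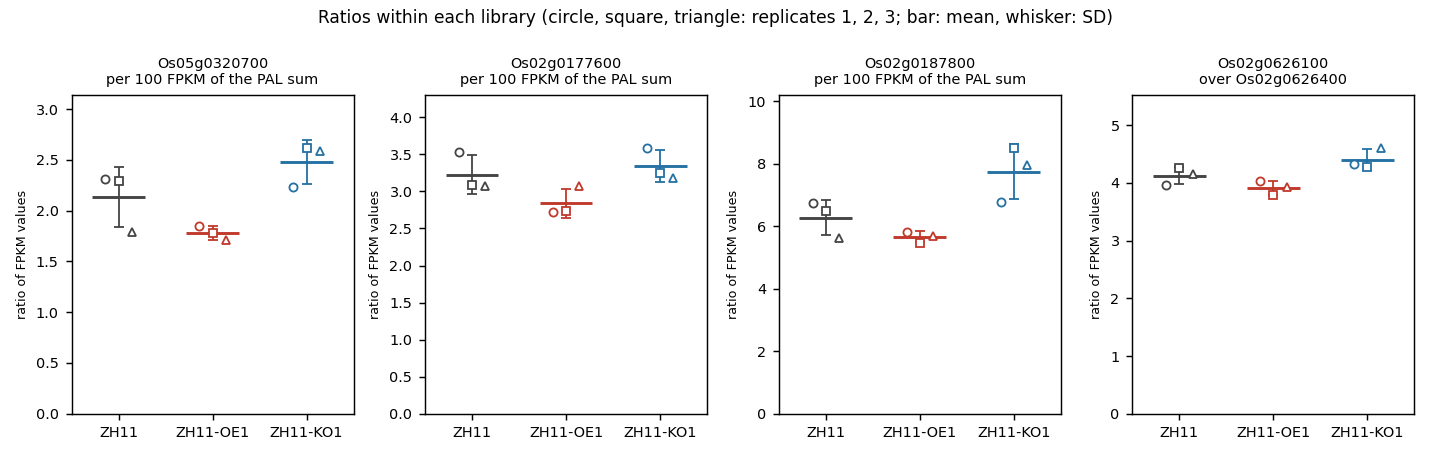
Ratios of FPKM values within each library (vertical axes, from 0) for the 3 genotypes: Os02g0626100 over Os02g0626400, and the *C4H* gene (Os05g0320700), *4CL3* (Os02g0177600) and *CAD2* (Os02g0187800) per 100 FPKM of the *PAL* sum, with a symbol per replicate, a bar for the mean and a whisker for the SD. *CAD2* per 100 FPKM of *PAL* lies at 6.78 to 8.50 in ZH11-KO1, above the other libraries, and at 5.47 to 5.82 in ZH11-OE1.

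The tested genes shared their order among the libraries of a genotype. In ZH11-OE1, replicate 3 was the lowest library for 9 of the 9 genes, and in ZH11-KO1 replicate 3 was also the lowest for 9 of 9 and replicate 1 the highest for 8. In ZH11, replicate 2 was the lowest for 7 and replicate 1 the highest for 6. Replicate 3 of both lines was also lowest in the sums of other lists described below. These were the other monolignol genes, the flavonoid branch, the secondary wall genes and the tapetum and anther markers. The sums of the green tissue and floral organ markers were lowest in replicate 3 only in ZH11-KO1. The share of all genes with this order was not computed. FPKM are scaled to library size. The totals differed by at most 1.15-fold, and were lowest in ZH11-KO1 replicate 3 and highest in ZH11-OE1 replicate 3. Whether depth or scaling had a part in the shared order was not tested. The part of this shared order in the comparisons was not tested, beyond the fits without each library.

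Other genes of monolignol synthesis were read from a list of 28 identifiers written from background knowledge, covering further *C4H*-like, *4CL* and *CAD* genes and the hydroxycinnamoyl transferases, hydroxylases, methyltransferases and reductases between them, of which 19 were tested and 9 were below the filter. In ZH11-OE1, 8 of the 19 were called, all lower than in ZH11, where 10 percent of all tested genes were called lower, with a median log2 fold change of -0.37. The largest of these was -1.02 for Os10g0512400 (SE 0.20, limma adjusted p = 0.0116). In ZH11-KO1, 1 was lower and 1 higher, which is near the 8.60 percent called over all tested genes, with a median of -0.24: Os10g0512400 at -1.21 (adjusted p = 0.00839) and Os10g0430200 at 0.40 (adjusted p = 0.0452). With the filter at 5 FPKM, 0 were lower and 1 higher in ZH11-KO1, so that Os10g0512400 was not called there. In ZH11-OE1, 7 were then lower. The summed level of the list was 3075 to 3853 FPKM in ZH11, 2007 to 2338 FPKM in ZH11-OE1 and 2579 to 3140 FPKM in ZH11-KO1, so that ZH11-OE1 was apart from both others. The count in ZH11-KO1 was 5 with the replicate block, in the fit of all libraries as in that of the 2 groups. Over all tested genes these fits called 1807 and 2705.

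Lignin is laid down in the secondary wall. Over all tested genes, 10 percent were called lower in ZH11-OE1, 3.59 percent in ZH11-KO1 and 1.61 percent in both. The median log2 fold changes of all tested genes were -0.04 in ZH11-OE1 and -0.02 in ZH11-KO1. Of 5 identifiers for secondary wall cellulose synthases and wall regulators, 4 were called in ZH11-OE1 (median log2 fold change -0.66) and 4 in ZH11-KO1 (median -0.58), each lower, and 3 of these were called in both. The others were Os01g0285300, with a log2 fold change of -0.05 in ZH11-OE1 (limma adjusted p = 0.728) and -0.45 in ZH11-KO1 (0.0115), and Os10g0467800, with -0.75 (0.0173) and -0.27 (0.337). Their summed level was 266 to 364 FPKM in ZH11, 186 to 238 FPKM in ZH11-OE1 and 192 to 218 FPKM in ZH11-KO1, the lines overlapping and both below ZH11.

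Marker genes of other cell types also moved between the genotypes. Over all tested genes 3.76 percent were called higher in ZH11-OE1 and 5.0 percent in ZH11-KO1. Shares of all genes at an unadjusted p were not computed. Of 6 tapetum and anther markers, 3 were called in ZH11-OE1 and 4 in ZH11-KO1, each higher than in ZH11. At an unadjusted p under 0.05, 5 passed in each line, of which 1 was lower, Os07g0549600, with log2 fold changes of -0.40 in ZH11-OE1 (limma adjusted p = 0.105) and -0.42 in ZH11-KO1 (0.117). Their sums, at 2681 to 4157 FPKM in ZH11, 2604 to 3224 FPKM in ZH11-OE1 and 3007 to 4408 FPKM in ZH11-KO1, overlapped, but most of each sum came from Os11g0582500, which had log2 fold changes of -0.38 in ZH11-OE1 (limma adjusted p = 0.243) and 0.07 in ZH11-KO1 (0.867). Without that gene, left out after seeing the values, the sums were 181 to 370 FPKM in ZH11, 507 to 538 FPKM in ZH11-OE1 and 425 to 543 FPKM in ZH11-KO1, with both lines above ZH11. The full sums did not show this separation. Of 5 green tissue markers 2 were called lower in ZH11-OE1, where 10 percent of all tested genes were called lower. The marker sums were 4922 to 6913 FPKM in ZH11 and 2937 to 3686 FPKM in ZH11-OE1.

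In ZH11-KO1 the green tissue markers summed to 5280 to 5865 FPKM, within the ZH11 range, and limma called 0 of 5 (1 at an unadjusted p under 0.05, and 0 in the voom fit). Over all tested genes 13.8 percent were called in ZH11-OE1 and 8.60 percent in ZH11-KO1. Limma called 0 of the 8 floral organ markers in ZH11-OE1 (1 at an unadjusted p under 0.05) and 0 in ZH11-KO1 (3 at that level), and voom 0 in each. Their sums were 1395 to 1558 FPKM in ZH11, 1333 to 1579 FPKM in ZH11-OE1 and 1349 to 1460 FPKM in ZH11-KO1. None of these markers was at 0 in any library. The part of tapetum, anther or green tissue in the levels of the *PAL*, *C4H*, *4CL3* and *CAD2* genes was not tested.

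**Figure D4:**
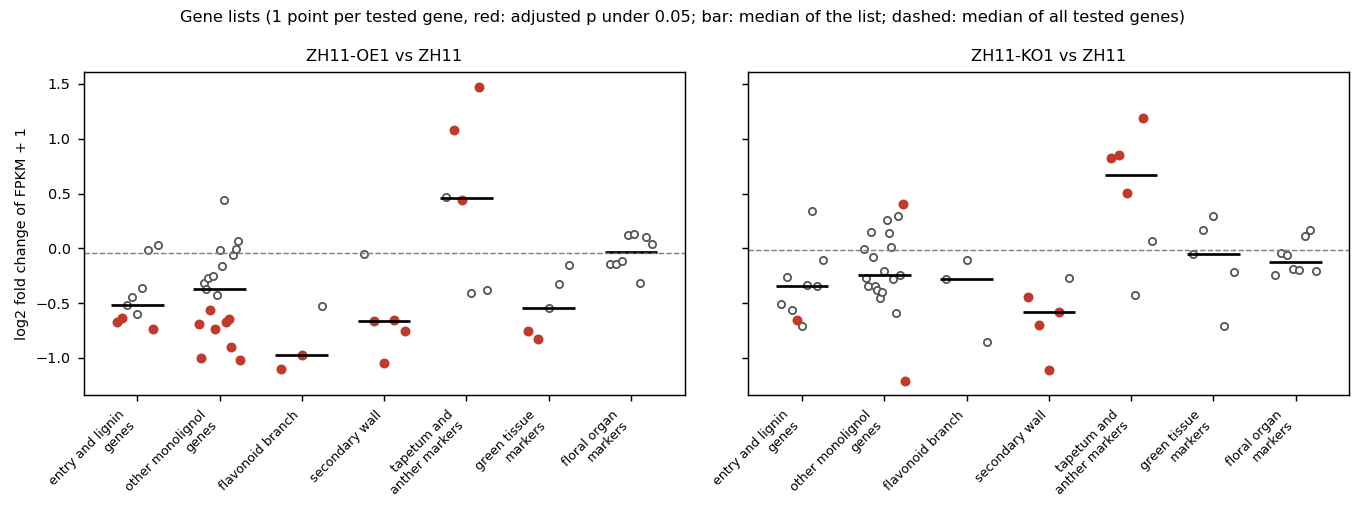
Log2 fold change of FPKM + 1 (vertical axis) of every tested gene of each list in ZH11-OE1 and in ZH11-KO1 against ZH11, in red for a limma adjusted p under 0.05, with a bar at the median of the list and a dashed line at the median of all tested genes (-0.04 and -0.02). The entry and lignin genes have medians of -0.52 and -0.34, and the secondary wall genes of -0.66 and -0.58.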

How the data were processed

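Per the labels and the methods of the study, total RNA of young panicles was made into mRNA libraries, and the authors mapped the reads to IRGSP-1.0 with HISAT2, counted them per gene with featureCounts and deposited FPKM values for 9 libraries. Reads, gene lengths and totals were recovered from the steps of these values, of which 100 percent of 196020 were whole within 0.01 read. A count test on the recovered reads was run as limma voom, chosen after seeing the data. The members and the gene lists were chosen with earlier results of these data known, and list identifiers come from background knowledge. The rule for named genes was the 10 identifiers, and Os10g0512400, Os10g0430200, Os01g0285300, Os10g0467800, Os07g0549600 and Os11g0582500 were added after their values were seen, as were 2 genes of the flavonoid branch.

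The test was the two-sided limma fit (version 3.58.1, R 4.3.3) of log2(FPKM + 1), with 1 mean per genotype over all 9 libraries, a trend on mean expression and a mean of 1 FPKM or more. The step was tested on simulated data. P-values weigh a difference against the spread between libraries within the genotypes, pooled over the 3 genotypes. The spread between independent lines, with 1 line per genotype, does not enter them. Tables were handled in pandas 2.3.3 and numpy 2.4.6 under Python 3.11.15 and drawn in matplotlib 3.10.9. Alternatives tried were quantile normalization, median-of-ratios rescaling, a pseudocount of 0.1, a filter at 5 FPKM or none, a fit with no trend, a replicate block, a fit of the 2 groups alone, and leaving out each library. For pairing, deviations from the group means were correlated across genes. Same-numbered ZH11 and ZH11-KO1 libraries had r of 0.234 to 0.316 (differently numbered at most -0.0218). They were taken as paired only in the fits with the replicate block, and the main fit used no block. For ZH11 and ZH11-OE1 r was -0.279 to 0.0234 with the same number and up to 0.274 with another. For ZH11-OE1 and ZH11-KO1 r was -0.0649 to 0.0147 and up to 0.113. These were not taken as paired. Since an r of 0.274 also arose between differently numbered libraries, the pairing of ZH11 and ZH11-KO1 is uncertain.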

Additional observations from a re-analysis of the deposited data

Results flagged for a closer look

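The lists read beside the 9 tested genes held genes that differed between the transgenic lines themselves, by the limma test of ZH11-OE1 against ZH11-KO1, which called 23.9 percent of all tested genes. They were 6 of the 19 tested monolignol genes, all lower in ZH11-OE1, with a median log2 fold change of -0.28 over the list. In the flavonoid branch they were 2 of 3, also lower in ZH11-OE1. Of the 5 secondary wall genes 1 differed, higher in ZH11-OE1. Of the 5 green tissue markers 3 differed, all lower in ZH11-OE1, and of the 8 floral organ markers 2, with 1 in each direction. Limma called 0 of the 6 tapetum and anther markers between the lines, with 0 at an unadjusted p under 0.05 and 0 by voom.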

How the results depend on the processing

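Each tested gene was recomputed under 17 to 19 alternatives. Of 161 values in ZH11-OE1 vs ZH11, 147 kept direction and side of the threshold, as did 149 of 170 in ZH11-KO1 vs ZH11 and 139 of 161 between the lines. With the replicate block, calls among the 9 genes changed only where the report says so.

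Main counts of members were 3 in ZH11-OE1, 1 in ZH11-KO1 and 0 between the lines. For ZH11-KO1 they were 0 with no filter or only the 2 groups compared, 2 with quantile normalization, the replicate block in all 9 libraries or voom, and 5 with the block in the 2 groups (both last fits chosen after seeing the data). Between the lines they were 2 with only the 2 groups compared or voom and 3 with the replicate block, whose numbers were not taken as paired there. Leaving out each library gave 2 to 4, 0 to 4 and 0 to 2. The other monolignol genes (main count 2 in ZH11-KO1) gave 1 with no filter, a minimum of 5 FPKM, only the 2 groups or no trend, 4 with quantile normalization or voom, and 5 with either block. Leaving out each library gave 1 to 2, and 2 to 6 between the lines (main 6).

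All genes called were 2999 in ZH11-OE1, 1872 in ZH11-KO1 and 5198 between the lines. For ZH11-KO1 they were 1202 with no filter, 960 with only the 2 groups and 2052 with quantile normalization. With voom they were 2077, and with the block 1807 in all 9 libraries and 2705 in the 2 groups. Between the lines they were 5645 with only the 2 groups, 5527 with voom and 5379 with the block. Leaving out each library gave 1090 to 3235, 417 to 1993 and 2336 to 5638. Higher and lower calls of 820 and 2179 in ZH11-OE1 became 1182 and 1781 after median-of-ratios rescaling. Between the lines 1761 and 3437 became 2966 and 2812 after quantile normalization.

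Only genes that were not called turned the sign of their log2 fold change. After median-of-ratios rescaling and quantile normalization Os04g0518400 had 0.0248 and 0.0714 in ZH11-OE1, and Os04g0518100 had 0.0126 and 0.0643 between the lines. Leaving out each library gave, in ZH11-OE1, -0.14 to 0.12 for Os04g0518400 and -0.0652 to 0.12 for Os05g0427400, and in ZH11-KO1 -0.29 to 0.12 for Os05g0427400. Between the lines it gave -0.0316 to 0.19 for Os02g0626100, -0.23 to 0.46 for Os02g0627100, -0.11 to 0.12 for Os04g0518100, -0.0904 to 0.32 for Os05g0427400 and -0.28 to 0.0290 for *4CL3*. The log2 ratio of the *PAL* sums between the lines (0.0675) ran from -0.0165 to 0.22. The cause was not tested.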

Other observations

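The flavonoid branch leaves the pathway after the *4CL* step, and 3 of its 7 listed genes were tested, the other 4 being below the filter. In ZH11-OE1, 2 of the 3 tested genes were lower than in ZH11, Os03g0819600 with a log2 fold change of -1.10 (SE 0.18, limma adjusted p = 0.00603) and Os04g0662600 with -0.97 (SE 0.20, adjusted p = 0.0126). Over all tested genes 10 percent were called lower there. In ZH11-KO1 limma called 0 of the 3 (1 at an unadjusted p under 0.05, and 1 by voom), against 8.60 percent of all tested genes. The summed level of the branch was 167 to 283 FPKM in ZH11, 90.0 to 115 FPKM in ZH11-OE1 and 135 to 196 FPKM in ZH11-KO1. ZH11-OE1 was thus apart from both other genotypes, which overlapped.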
